A study of Mus musculus with 6 samples.

Results

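The wound keratins are intermediate filament proteins that resting epidermis between the hair follicles makes little of and that keratinocytes switch on at a wound edge, in psoriatic skin and in many squamous tumors. Keratin filaments form from pairs of a type II and a type I protein. Krt6a, Krt6b and Krt75 are type II keratins, and Krt16 and Krt17 are type I keratins that pair with them. Outside injury these keratins have standing sites of expression in skin appendages: Krt17 in the outer root sheath of the hair follicle and in the nail, Krt75 in the companion layer of the follicle, and Krt6a, Krt16 and Krt6b in the companion layer, footpad or nail. The 5 genes were taken from the microarray by name, as every probe that was not a control and carried one of these gene names. This gave 6 probes among the 55681 distinct probes of the array, 1 for each gene and a second for Krt6b.

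Total RNA came from biopsies of female mice of the inbred strain FVB/N. The 3 healthy skin samples had been painted with acetone, the solvent. The 3 tumor samples, which the labels call cSCC (cutaneous squamous cell carcinoma), came from skin painted with DMBA, a polycyclic hydrocarbon that mutates DNA, and then for 6 weeks with PMA (also called TPA), a phorbol ester that promotes tumors. A repeat dose of DMBA in week 8 was followed by 14 more weeks of PMA. PMA is itself a strong inducer of wound keratins in mouse skin, and no painted skin without a tumor was among the samples, so tumor and painting cannot be told apart in any value below. Whether each biopsy is from a mouse of its own is not in the labels, so p-values here cover the spread among these samples, which may be technical.

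Each sample was measured on 1 array of 1 colour, and all 6 arrays lay on 1 slide. Signals are given as log2 of the background-subtracted intensity minus that array's 75th percentile, so that 0 is the signal that 75% of the spots do not exceed. The arrays differed in brightness: the 75th percentile was 242 intensity units on the healthy skin 3 array and 525 to 897 on the others. The tumor 1 array had a median background of 85 against 23 to 26 elsewhere. All 12 keratinocyte marker genes measured (among them Krt5, Krt14, Trp63 and Cdh1) were well above background on every array. All 6 wound keratin probes were also well above background on every array, and none was saturated.

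Because genes of the Krt6 family are nearly identical in their coding part, the probes themselves matter for what follows. The probe of Krt6a (chr15:101520862-101520921, mm9, minus strand) is annotated to Krt6a alone, and 1 probe of Krt6b (chr15:101506492-101506551, mm9, minus strand), called its own probe here, to Krt6b alone. The other Krt6b probe (chr15:101509450-101509509, mm9, minus strand) is annotated to the transcripts of both Krt6b and Krt6a and is called the shared probe. A second probe of Krt5 (chr15:101542056-101542115, mm9, minus strand) lies in the same stretch of the keratin sequence as the shared probe. The lines below give the first 30 bases of the Krt6a probe and of the own probe, and all 60 bases of the other pair, 5′ to 3′. In that pair the capitals mark bases that are identical when the probes are aligned.
Krt6a: agcaagaagagctacaggcagtgaattctg
Krt6b own: cttgtgacaacacagtcattagtcctgtgc
Krt6b shared: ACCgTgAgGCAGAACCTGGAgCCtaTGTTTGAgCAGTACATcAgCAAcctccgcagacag
Krt5 second: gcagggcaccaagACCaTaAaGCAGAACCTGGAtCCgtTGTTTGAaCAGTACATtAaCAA
The aligned pair overlapped by 47 bases, of which 38 (80.9%) were identical, with a longest identical run of 12. Between the Krt6a probe and the own Krt6b probe, the longest shared run was 6 bases. The remaining probes lie at chr11:100107408-100107467 for Krt16, chr11:100117535-100117594 for Krt17 and chr15:101393774-101393833 for Krt75 (mm9, all on the minus strand). Exon and UTR positions of the probes were not analysed here.

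In tumors, Krt6a, Krt6b and Krt16 were far higher than in healthy skin, while Krt17 and Krt75 did not pass the test. The question asked of the comparison was which wound keratins differ between the tumors and healthy skin. Of the 5 genes, 3 were called higher (limma, Benjamini-Hochberg adjusted p under 0.05 over 24767 features with 1 probe per gene). The share called among all features was 25.9%, with 10.3% higher and 15.6% lower in tumors. With each of the 34297 detected probes fitted on its own, 26% were called, 10.1% higher and 16% lower. The groups did not overlap for 4 of the 5 genes, 3 higher and 1 lower. Over all features they did not overlap for 49.7%, 20.7% higher and 29% lower (20.3% and 29.6% over all detected probes). The median log2 fold change was 5.49 over the 5 wound keratins and -0.16 over all features. As these are bulk biopsies, more cells that express a gene and more RNA per cell cannot be told apart.

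Krt6a, a type II keratin of activated keratinocytes, had log2 signals of 2.35, 1.99 and 0.25 in healthy skin 1, 2 and 3. In tumors 1, 2 and 3 its signals were 8.04, 7.63 and 7.52. The tumors lay close together, and the healthy samples spread more widely, with healthy skin 3 lowest. The difference was a log2 fold change of 6.20 ± 0.55 (SE), or 73.5-fold, with an adjusted p of 0.000736. Before scaling, the intensity was 288 to 2682 units in healthy skin and 164768 to 170101 in tumors. Without healthy skin 3 the log2 fold change was 5.56, and within slide row 2, which holds healthy skin 3 and all tumors, it was 7.48. Any test within that row sets 1 healthy array against 3 tumors and assumes that the healthy array varies as the tumors do.

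Krt6b, the close copy of Krt6a next to it on the chromosome, rose on both of its probes. On the shared probe the log2 signals were 1.55, 1.11 and 0.0095 in healthy skin and 7.66, 7.31 and 7.27 in tumors. This probe had the higher mean and stood for Krt6b in the fit by gene, with a log2 fold change of 6.52 ± 0.42 (SE), or 92.1-fold (adjusted p = 0.000295). Its signal cannot be divided between Krt6a and Krt6b. On the own probe the healthy skin samples were at -1.74, 0.93 and -3.15, and the tumors at 8.94, 8.71 and 8.55. Healthy skin 2 stood well above the other healthy samples on this probe, but still far below every tumor. The log2 fold change was 10.05 ± 0.91 (SE), or 1061-fold (adjusted p = 0.000804 with all 34297 detected probes fitted), which was number 17 from the top among those probes. The own probe's healthy signal was as low as 27.3 intensity units, on healthy skin 3, so the size of its fold change rests on dim spots. It was 9.14 without healthy skin 3, 11.18 without healthy skin 2 and 9.44 with another background correction (normexp). On the same arrays, the change on the own probe exceeded that on the shared probe by 3.53 on the log2 scale, with no overlap between the groups (exact permutation test over arrays, two-sided, p = 0.1, the smallest that 3 against 3 can give).

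Krt16, the type I partner of Krt6 proteins, had log2 signals of 2.78, 3.50 and 3.36 in healthy skin and 8.90, 8.58 and 8.62 in tumors. Samples were tight within each group, with an SD of 0.38 in healthy skin and 0.18 in tumors, and the groups were far apart. The log2 fold change was 5.49 ± 0.30 (SE), or 44.8-fold (adjusted p = 0.000221). Krt16 did not share the low value of healthy skin 3 that Krt6a and Krt6b showed. Its log2 fold change was 5.34 within slide row 2 and between 5.27 and 6.38 over all 21 alternative settings. Krt6a, Krt6b on either probe and Krt16 were called higher under each of those 21 settings.

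Krt17, which in normal skin is made in the hair follicle and which acts on growth and inflammation as well as on the cytoskeleton, was already bright in healthy skin. Its log2 signals were 7.24, 6.65 and 7.73 in healthy skin and 6.96, 8.19 and 8.09 in tumors. Tumors 2 and 3 were above all healthy samples, while tumor 1 lay between healthy skin 1 and 2, so the groups overlapped. The log2 fold change was 0.54 ± 0.44 (SE), or 1.45-fold (adjusted p = 0.389). It was 0.02 within slide row 2, and 1.43 when spike-in RNA set the scale. With every probe fitted it passed the test under 2 of the 21 alternatives, array weights (adjusted p = 0.0458) and leaving out healthy skin 3 and tumor 1 together (0.0498). Leaving out tumor 1 alone gave 0.93 (adjusted p = 0.148).

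Krt75, the keratin of the companion layer, pointed the other way. Its log2 signals were -1.02, -2.05 and -2.01 in healthy skin and -2.54, -4.65 and -2.64 in tumors. Every tumor was below every healthy sample, a pattern seen for 29% of all features, and tumor 2 was by far the lowest. The log2 fold change was -1.58 ± 0.61 (SE) and did not pass the test (adjusted p = 0.096). It was -0.90 without tumor 2, -1.27 within slide row 2, -0.70 with spike-in scaling and -2.21 with array weights, the 1 setting of 21 under which it was called (adjusted p = 0.0236).

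**Figure D1:**
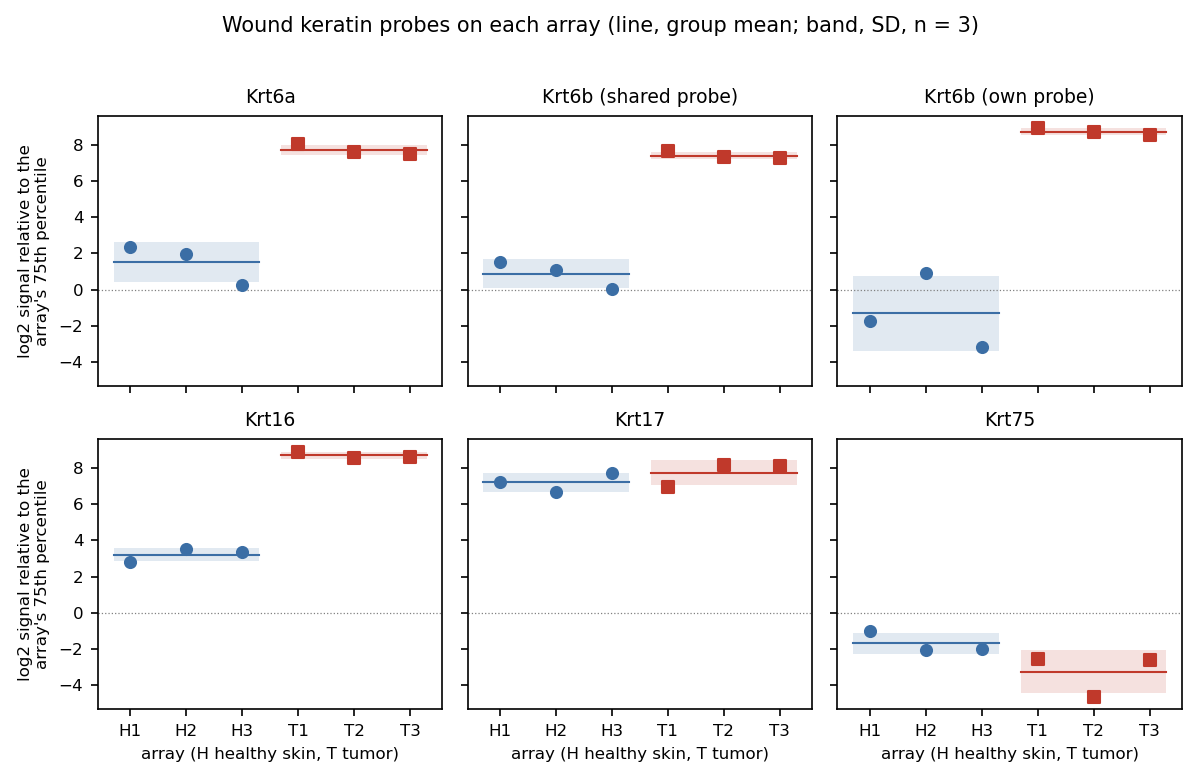
Log2 signal of each wound keratin probe relative to the array's 75th percentile (vertical axis) on the 3 healthy skin arrays (H1 to H3, blue circles) and 3 tumor arrays (T1 to T3, red squares), with group means as lines and the SD (n = 3) as bands. Krt6a, Krt6b and Krt16 sit between 7.27 and 8.94 in tumors and at or below 3.50 in healthy skin, Krt17 overlaps, and Krt75 is lower in every tumor; heights are not comparable between probes.

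Krt5 and Krt14, the keratin pair of the basal layer, were taken as references for basal keratinocyte RNA in a biopsy. Krt14 had log2 signals of 6.92, 7.14 and 7.42 in healthy skin and 7.62, 8.42 and 8.34 in tumors, a log2 fold change of 0.97 ± 0.33 (SE) that did not pass the test (adjusted p = 0.0659, and called under 6 of 21 alternatives). Krt5 was at 8.70, 8.66 and 9.59 in healthy skin and 8.90, 8.70 and 8.60 in tumors, with a log2 fold change of -0.25 ± 0.34 (SE, adjusted p = 0.609). The sign of the Krt5 difference turned under 6 of 21 alternatives, quantile, median and spike-in scaling among them. The second probe of Krt5, whose sequence is set beside the shared Krt6b probe above, went from 3.86, 3.52 and 1.81 in healthy skin to 5.33, 5.89 and 5.50 in tumors. It was called higher by 2.51 (adjusted p = 0.0153 with every probe fitted, and 0.0512 without tumor 2), unlike the first probe. The Krt5 probes therefore disagree, and whether Krt6 transcripts bind the second probe was not tested. Krt15, another basal keratin, went from 7.60, 7.82 and 8.01 in healthy skin to 7.65, 5.14 and 2.48 in tumors. Its log2 fold change was -2.72 with overlapping groups (limma, adjusted p = 0.113), so the basal keratins did not move together.

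Within each array, the wound keratins were then set against Krt14 and Krt5, which removes the scaling between arrays. A difference between probes on 1 array has no meaning as a level, but its change between the groups shows unequal change. Relative to Krt14, Krt6a rose by 5.23 on the log2 scale, Krt6b (shared probe) by 5.56 and Krt16 by 4.52, and no tumor overlapped with healthy skin. Relative to Krt5 the changes were 6.45, 6.77 and 5.74. Each had an exact two-sided permutation p of 0.1, the smallest possible here (0.143 after Benjamini-Hochberg adjustment over 10 comparisons). Krt17 changed by -0.43 relative to Krt14 and by 0.79 relative to Krt5, with overlapping groups and p = 0.3 in both exact permutation tests. Its change relative to Krt5 became -0.59 when the probes of Krt5 were averaged. Krt75 changed by -2.55 relative to Krt14 without overlap (exact permutation p = 0.1) and by -1.33 relative to Krt5 with overlap (p = 0.3, exact permutation test).

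**Figure D2:**
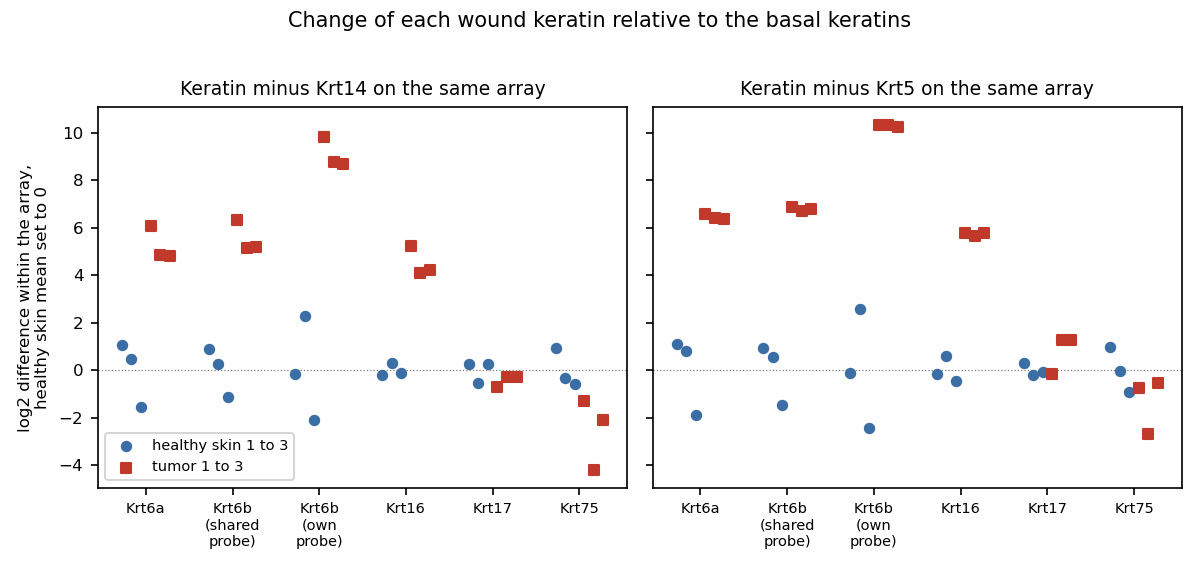
Log2 difference within each array between a wound keratin probe and Krt14 (left) or Krt5 (right), with the mean of the 3 healthy skin arrays (blue circles) set to 0 for each probe and the 3 tumor arrays as red squares. Krt6a, Krt6b and Krt16 stand clear of healthy skin against both basal keratins, Krt17 overlaps with it, and Krt75 is below it against Krt14 only.

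All 10 pairs of wound keratins were compared in the same way. With the shared probe, which also reads Krt6a, standing for Krt6b, the groups overlapped in each of the 3 pairs among Krt6a, Krt6b and Krt16. The change of Krt6a exceeded that of Krt16 by 0.71 (exact permutation p = 0.6), which became -0.0027 without healthy skin 3, and the change of Krt6b on the shared probe exceeded that of Krt16 by 1.04 (p = 0.4, exact permutation test). The change of Krt6a less that of Krt6b on the shared probe was -0.33 (exact permutation p = 0.4). Each of these 3 genes differed from Krt17 without overlap, by 4.95 for Krt16, 5.66 for Krt6a and 5.98 for Krt6b, and from Krt75 by 7.07 to 8.11 (exact permutation p = 0.1 each, 0.167 after adjustment over the 10 pairs). Krt17 and Krt75 themselves differed by 2.13 with overlapping groups (p = 0.2, exact permutation test). The own probe of Krt6b gave another picture. Its difference from the Krt6a probe was -4.09, -1.06 and -3.40 in healthy skin and 0.91, 1.08 and 1.03 in tumors, so that the change on the own probe was larger by 3.85 without overlap. From Krt16 it was larger by 4.57, also without overlap (exact permutation p = 0.1 each, with 7 such comparisons of the own probe, added after its values were seen). Krt6a and Krt16 were thus not separated from each other with 3 arrays per group, which does not show that they changed equally, and whether Krt6b stood apart from them depended on its probe.

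The genes lie in the type II keratin cluster of chromosome 15 and the type I cluster of chromosome 11, and the probes between them were read in order. Between Krt75 and Krt6b the array has probes for Gm5476, Gm5477, Gm5414 and Gm5478, of which Gm5476 and Gm5478 are listed by RefSeq as transcribed pseudogenes and Gm5414 as a protein-coding gene. These genes were singled out after their values were seen. Gm5478 went from -0.19, -0.10 and -0.70 in healthy skin to 7.47, 7.27 and 7.11 in tumors, a log2 fold change of 7.61 (adjusted p = 0.000112 with every probe fitted). Gm5476 went from 0.33, 0.03 and -1.56 to 6.73, 6.45 and 6.33, a log2 fold change of 6.90 (adjusted p = 0.000449), with the same low value in healthy skin 3 as Krt6a. The probes of both pseudogenes were thus high in every tumor, like the Krt6 probes beside them. Gm5414 rose by 2.90 (adjusted p = 0.00618), and Gm5477 was not well above background on any array. On the far side of Krt75, Krt90 rose (adjusted p = 0.00284) but passed background on only 1 of 3 healthy arrays, with signals of -2.81, -5.33 and -6.35 there and 2.43, 5.82 and 2.73 in tumors. The fitted log2 fold change was 8.50, and the difference was 7.77 with healthy signals raised to the lowest signal above background on their array. So Krt75 lay between Krt90 and Gm5476, which rose, while it was not called.

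These neighbours resemble the Krt6 genes in sequence, which bears on what their probes bind. The Gm5478 probe and the own Krt6b probe matched at 26 of 33 overlapping bases (78.8%), with a longest run of 12. The Gm5476 probe and the Krt6a probe shared a run of 12 bases. Among their long ungapped overlaps, the most matches found was 18 of 58 bases. Whether that overlap holds the run was not examined. Whether transcripts of 1 gene bind the probe of another was not tested. On chromosome 11, an array probe with no gene name (A_55_P1977275, chr11:100090163-100090222, mm9) next to Krt16 rose from -1.84, -1.12 and -1.59 to 5.16, 5.14 and 5.79, a log2 fold change of 6.88 (adjusted p = 0.00015). Its longest run in common with the Krt16 probe was 5 bases. Beyond Krt17, Krt42, a type I keratin of the nail, rose by 1.37 ± 0.36 (SE, adjusted p = 0.031), a call lost under 8 of 21 alternatives, including the removal of healthy skin 1 (adjusted p = 0.0666) or of tumor 1, 2 or 3 (0.075, 0.0992 and 0.054).

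**Figure D3:**
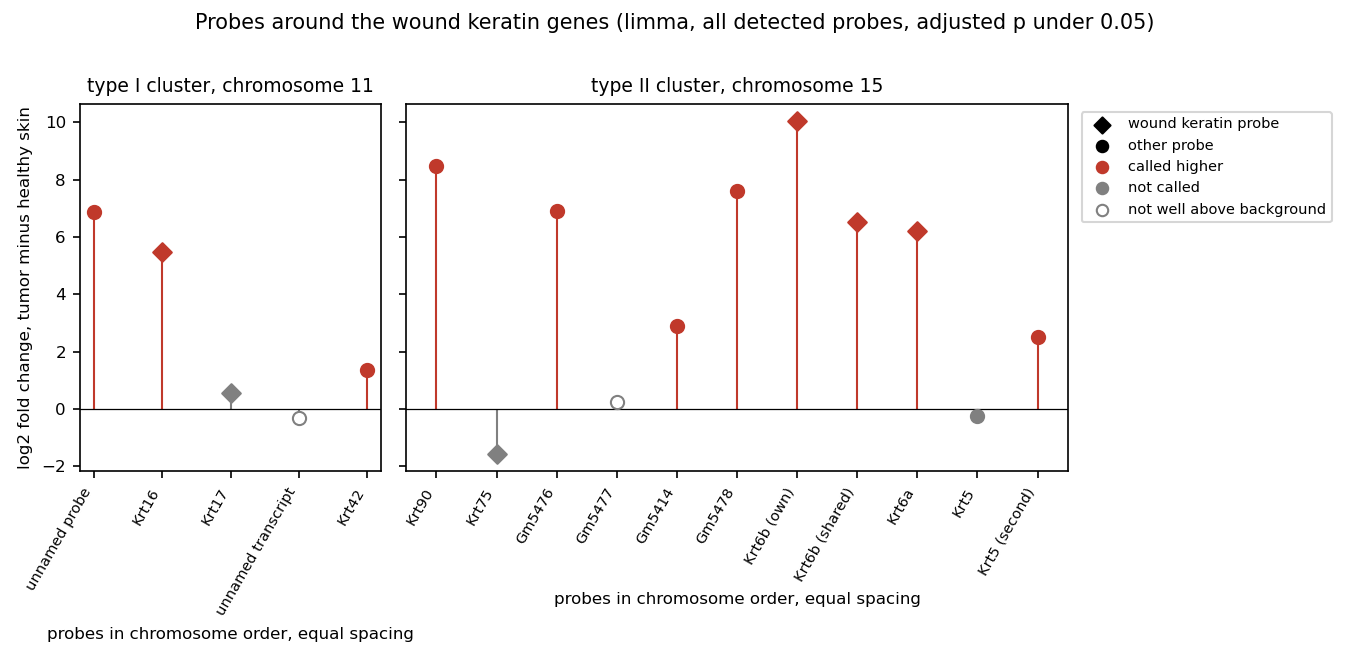
Log2 fold change (tumor minus healthy skin, all detected probes fitted) of the probes around Krt16 and Krt17 (left) and from Krt90 to Krt5 (right), in chromosome order with equal spacing; diamonds are wound keratin probes, red is called higher, grey not called, and open symbols were not well above background on any array. Gm5476, Gm5478 and the unnamed probe rise by 6.88 to 7.61, while Krt75 and Krt17, in grey, were not called.

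The other keratins were described by class, from lists fixed with earlier results of these data known. Of the 8 suprabasal keratins measured, which mark differentiating epidermis, 6 were called lower, beside 15.6% of all features. The median log2 fold change of the 8 was -2.02. This count was 1 with spike-in scaling, 3 with median scaling, 2 without healthy skin 2 or healthy skin 3, and 3 without healthy skin 1, tumor 1 or tumor 2. Krt77 fell the furthest, from 5.16, 5.75 and 2.94 to -1.67, -2.91 and -1.55 (log2 fold change -6.66 ± 0.74 SE, adjusted p = 0.00147), a call kept under all 21 alternatives. Krt10, the type I keratin of the spinous layer, fell by 3.38 ± 0.77 on the log2 scale (adjusted p = 0.0185, but 0.0519 without healthy skin 2 and 0.0601 without healthy skin 3). A second probe of Krt10 changed by -1.50 with overlapping groups. On it, healthy skin 3 at 4.71 lay below tumor 1 at 5.75 and tumor 3 at 5.10. Krt1, the partner of Krt10, changed by -2.95 ± 0.86 (adjusted p = 0.0427). That call was lost under 13 of 21 alternatives, among them the removal of any single array except tumor 3 (adjusted p up to 0.121).

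Of 9 keratins of simple and mucosal epithelia measured, 5 were called higher, beside 10.3% of all features. The median log2 fold change of the 9 was 5.10. The count was at most 6 over the alternatives, and 2 within slide row 2, where healthy skin has no replicate. Krt18, a keratin of simple epithelia, went from -1.79, -3.85 and -2.46 to 3.53, 5.72 and 4.04, a log2 fold change of 7.13 ± 0.70 (SE, adjusted p = 0.000996). Krt4, a keratin of mucosal epithelium, stayed near background on each healthy array, and its tumor mean exceeded the measurable limit there by a factor of at least 120 (adjusted p = 0.0132, and 0.072 with slide row as a block). Tumors differed widely for Krt4, at 6.27, 2.07 and -2.14, unlike for Krt6a, Krt6b and Krt16, whose tumor signals had an SD of 0.27 or less.

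Hair keratins varied widely within the groups. None of 7 inner root sheath keratins and none of 12 hair shaft keratins measured was called by limma, with median log2 fold changes of 0.04 and 0.83. At an unadjusted p under 0.05, 1 of the former was lower and 2 of the latter were higher, and 5 hair shaft keratins were called higher without healthy skin 1. The median signal of the inner root sheath keratins was 4.44, -1.21 and -1.53 in healthy skin and 2.33, -6.26 and 1.81 in tumors, so that healthy skin 1 and tumors 1 and 3 were high and tumor 2 was lowest. Krt71, a keratin of the inner root sheath, had signals of 7.62, -1.21 and -1.53 in healthy skin and 5.76, -5.44 and 5.39 in tumors, and the sign of its difference turned under 6 of 21 alternatives. Without overlap between the groups, Krt72 of the inner root sheath had a log2 fold change of -4.91 (adjusted p = 0.0505) and Krt85 of the hair shaft one of 1.60 (adjusted p = 0.0796). The other probes of Krt85 changed by -1.06 and 0.30, so its probes disagree. Krt75, the wound keratin of the follicle, was also highest in healthy skin 1 and lowest in tumor 2, but its signals in tumors 1 and 3 lay below healthy skin 2 and 3, where the inner root sheath median lay above them. The part of hair follicle content in the values of Krt75 was not tested.

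**Figure D4:**
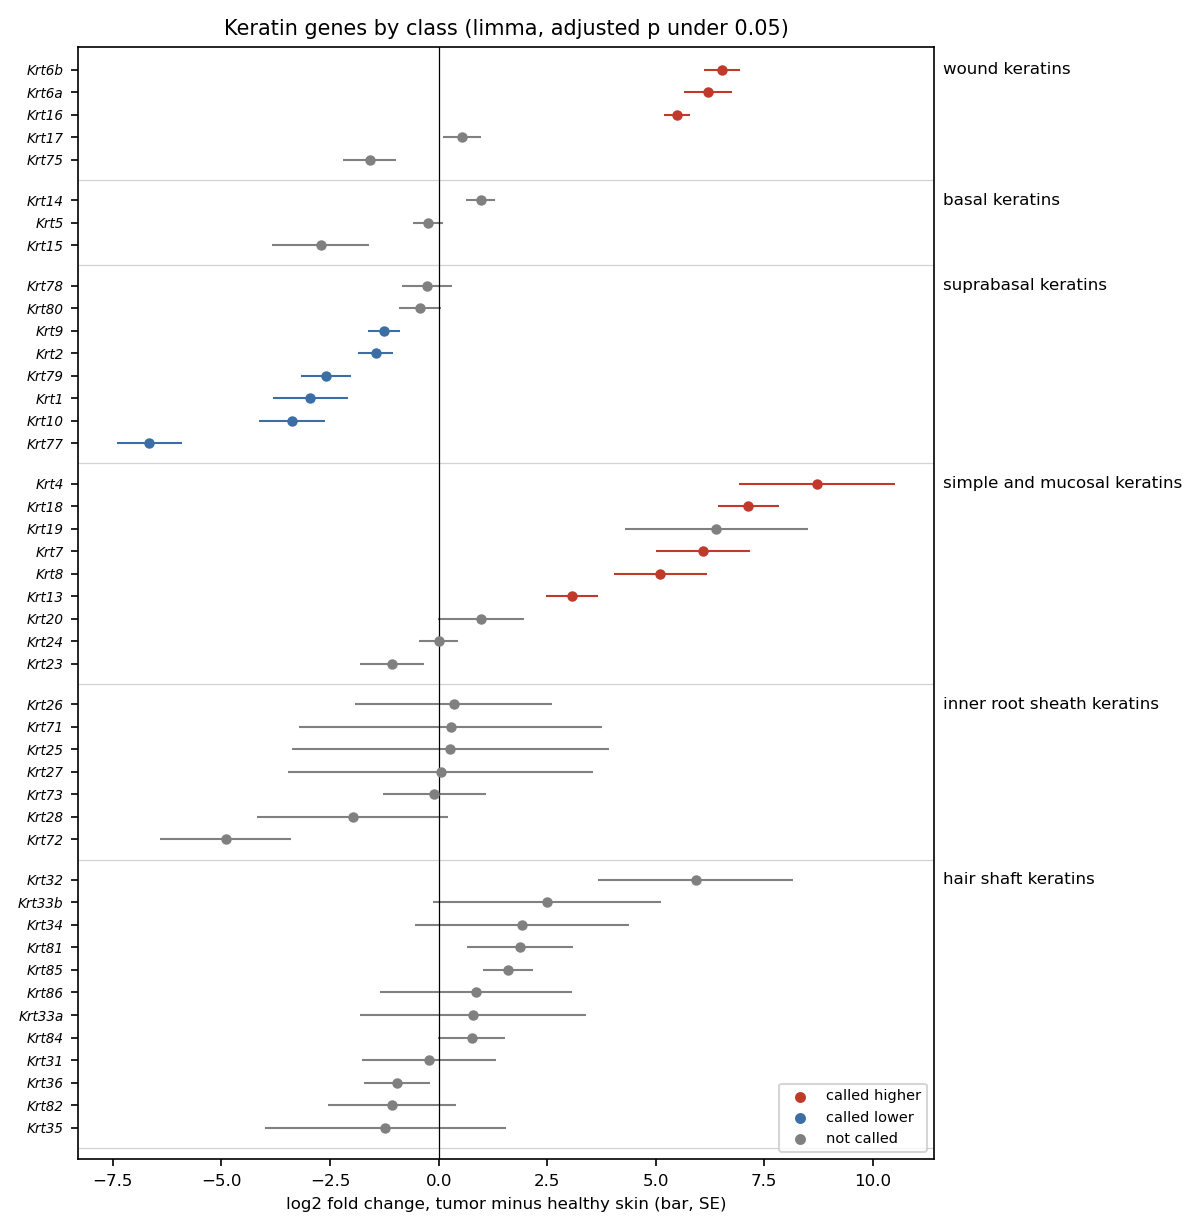
Log2 fold change of keratins by class (tumor minus healthy skin, limma, bars are SE): wound, basal, suprabasal, simple and mucosal, inner root sheath and hair shaft. Calls at adjusted p under 0.05 are red (higher) or blue (lower), and the rest are grey. Krt42 and Krt90 are not shown. Krt6a, Krt6b and Krt16 lie between 5.49 and 6.52, among the simple and mucosal keratins that rose, while suprabasal keratins lie below 0 and hair keratins have wide errors.

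Keratin filaments are anchored at desmosomes, cell junctions built of cadherins, plakoglobin, plakophilins and plakins. Of 15 such genes, 3 were called higher and 4 lower (median log2 fold change 0.27), beside 10.3% and 15.6% of all features. The 3 were 1 after leaving out tumor 1 or tumor 2, and the 4 were none with spike-in scaling. Dsc2, a desmosomal cadherin, rose from -1.25, -1.83 and -1.66 to 4.37, 4.21 and 3.64, a log2 fold change of 5.65 ± 0.32 (SE, adjusted p = 0.000235). Jup, plakoglobin, rose by 1.44 ± 0.34 (adjusted p = 0.0205, but 0.0588 without tumor 1 and 0.0586 without tumor 2). Eppk1, a plakin that binds keratin filaments in wounds, fell by 2.73 ± 0.35 on the log2 scale (adjusted p = 0.0023), and Dsc3, the desmosomal cadherin of the basal layers, fell by 1.83 ± 0.34 (adjusted p = 0.00965). The falls of Eppk1 and Dsc3 were no longer called with spike-in scaling (adjusted p = 0.0864 and 0.354).

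Signals known to switch on wound keratins were read next. Ligands of the EGF receptor induce Krt6 and Krt16 in keratinocytes. Of 7 ligands, 4 were called higher, the same number under each of the 21 alternatives, and 2 were called lower, with a median log2 fold change of 2.56. Hbegf, heparin-binding EGF, went from -0.34, -0.32 and -0.65 in healthy skin to 5.46, 4.92 and 4.38 in tumors, a log2 fold change of 5.36 ± 0.34 (SE, 40.9-fold, adjusted p = 0.000295). Epgn, epigen, rose by 3.42 ± 0.37 (adjusted p = 0.00135), and the others called higher were Areg at 3.32 and Tgfa at 2.56. Egf, the founding ligand, went the other way, from -0.44, -0.11 and -1.77 to -4.36, -4.06 and -4.58, a log2 fold change of -3.56 ± 0.46 (adjusted p = 0.00246, and 0.0518 with spike-in scaling). Btc, betacellulin, changed by -1.49 ± 0.42 (adjusted p = 0.0372), a call lost under 13 of 21 alternatives, including the removal of any array except healthy skin 3. The ligands thus did not move together.

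Cytokines that raise wound keratins in keratinocytes were mostly higher or not called. Of 9 measured, 5 were called higher (median log2 fold change 2.36), beside 10.3% of all features. The count was 3 without healthy skin 2 or without tumor 2. Il1b, interleukin-1 beta, went from -3.22, -2.46 and -2.61 to 2.88, 2.42 and 4.46, a log2 fold change of 6.02 ± 0.54 (SE, 64.8-fold, adjusted p = 0.000752). Il19, a cytokine of the interleukin-10 family, rose by 5.13 ± 1.26 (adjusted p = 0.0247), with healthy samples spread from -6.64 to -1.21. Its call was lost without healthy skin 2, tumor 1 or tumor 2 (adjusted p = 0.063, 0.0735 and 0.0691), and within slide row 2 the change was 2.25.

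Transcription factors described at wound keratin genes were mixed. Of 21 measured, 4 were called higher and 3 lower, with a median log2 fold change of -0.27. Among all features, 10.3% were called higher and 15.6% lower. Those called higher were Fosl1, Junb and Fos, subunits of the factor AP-1, and Nfe2l2, the oxidative stress factor Nrf2. Fosl1 went from -2.72, -3.82 and -4.97 to 0.63, 0.76 and 0.94, with 2 of 3 healthy arrays well above background, a log2 fold change of 4.61 ± 0.54 (SE, adjusted p = 0.0017). Junb rose by 3.37 ± 0.73 (adjusted p = 0.016, and 0.0503 without tumor 1), Fos by 2.47 ± 0.55 and Nfe2l2 by 2.30 ± 0.29. The other AP-1 genes on the list (Fosb, Fosl2, Jun and Jund) were not called. Called lower were Gli1, a target and effector of hedgehog signalling, Nr3c1, the glucocorticoid receptor that represses wound keratins, and Tfap2c. Gli1 went from 2.33, 0.72 and 3.35 to -2.30, -4.74 and -1.99 (log2 fold change -5.14 ± 0.88 SE, adjusted p = 0.007). Nr3c1 changed by -1.44 ± 0.31 (adjusted p = 0.0156, but 0.0574 without tumor 2 and 0.597 with spike-in scaling).

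Nfe2l2 acts on Krt6 and Krt16 and on detoxifying genes. Of 12 Nrf2 target genes, 6 were called higher (median log2 fold change 1.25), beside 10.3% of all features. Within slide row 2, with its single healthy array, 1 was called. Gsr, glutathione reductase, went from 1.62, 1.70 and 2.73 to 4.45, 5.59 and 4.75, a log2 fold change of 2.91 ± 0.44 (SE, adjusted p = 0.00431). Slc7a11, the cystine transporter, measured above background on 1 of 3 healthy arrays, rose by 3.35 ± 0.76 (adjusted p = 0.0181), but its call was lost without healthy skin 3 (0.0631), and the change was 0.72 with normexp background correction.

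**Figure D5:**
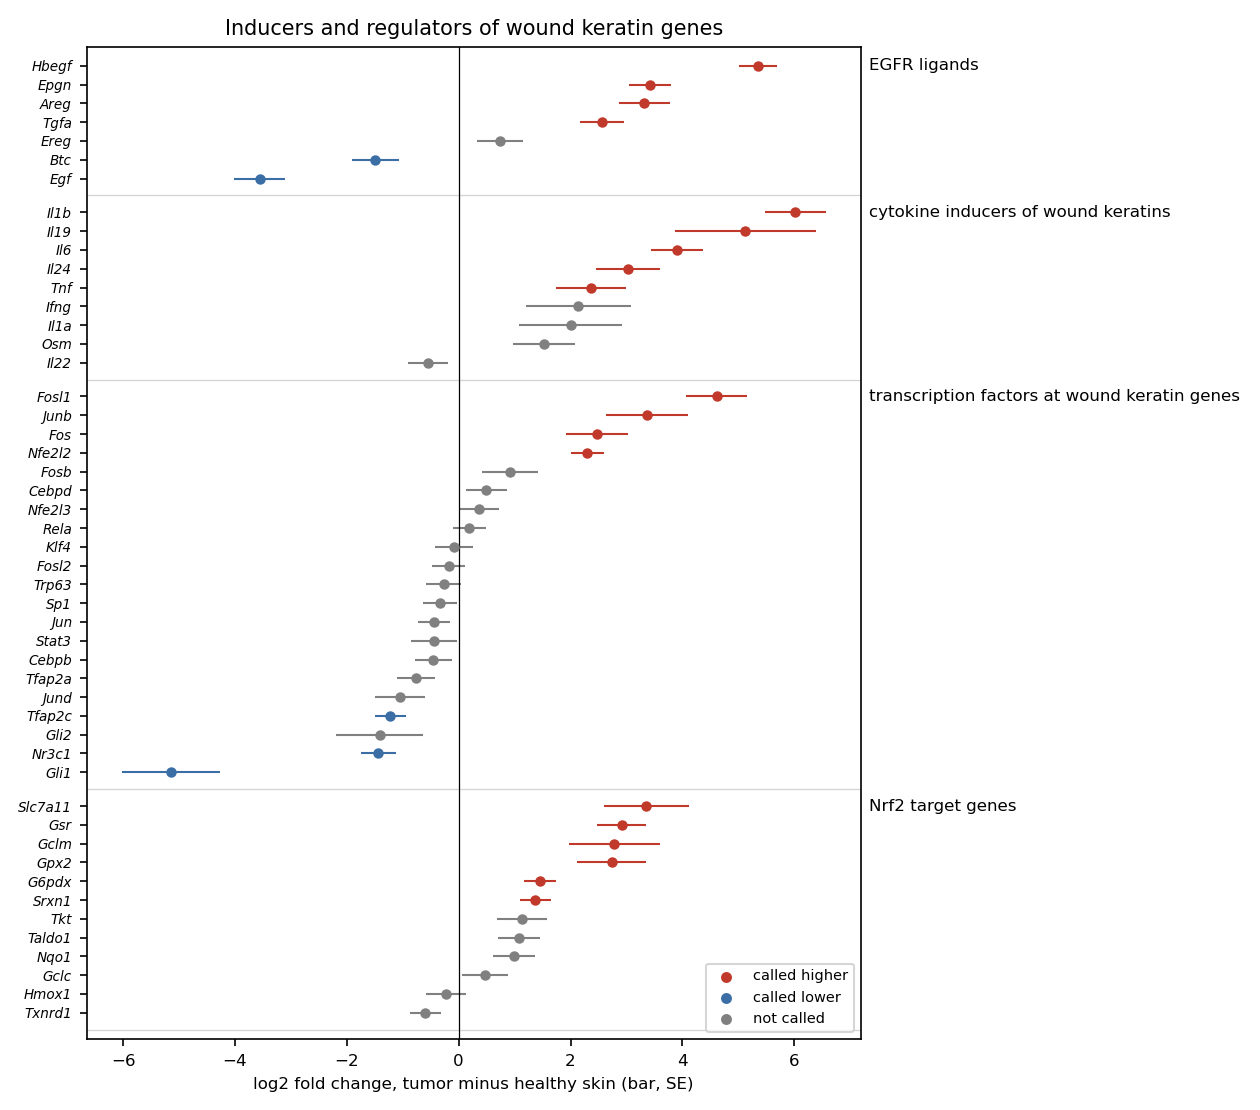
Log2 fold change (tumor minus healthy skin, limma, bars are SE) of EGF receptor ligands, cytokines, transcription factors and Nrf2 targets linked to wound keratin genes, with calls at adjusted p under 0.05 in red (higher) and blue (lower). Hbegf, Il1b and Fosl1 lie highest in their lists at 5.36, 6.02 and 4.61, and Egf and Gli1 lowest at -3.56 and -5.14.

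Genes whose products bind Krt17 or depend on it were partly higher, although Krt17 itself was not called. Of 7 measured, 4 were called higher, beside 10.3% of all features. The count was 3 with the authors' deposited values. The median log2 fold change of the 7 was 1.41. Cxcl5, a neutrophil-attracting chemokine, stayed near background in all healthy skin and stood at 5.16, 3.81 and 5.54 in tumors, higher by a factor of at least 815 (adjusted p = 0.000115). Sfn, the 14-3-3 sigma protein that Krt17 holds in the cytoplasm, rose from 2.87, 2.90 and 1.37 to 4.71, 4.33 and 4.62, a log2 fold change of 2.17 ± 0.45 (SE, adjusted p = 0.0136). The others called higher were Tradd at 1.64 and Hnrnpk at 1.28. The chemokines Cxcl9, Cxcl10 and Cxcl11 did not pass the test, with log2 fold changes of 0.66, 1.41 and -0.80. For Cxcl9 and Cxcl10 only tumor 2 lay above the healthy samples, at 2.78 and 2.19. A second probe of Cxcl11 changed by -1.32, and on both of its probes every tumor was below every healthy sample. With the mean of probes, 1 gene of this list was called lower.

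The companion layer and outer root sheath are standing sites of wound keratins in the hair follicle, and their other genes were compared with the members. Leaving the wound keratins out, 1 of 8 such genes was called higher and 4 lower (median log2 fold change -2.05), beside 10.3% and 15.6% of all features. Lhx2, a transcription factor of follicle stem cells, went from 3.49, 2.59 and 4.63 to -2.09, -1.88 and -1.62, a log2 fold change of -5.43 ± 0.51 (SE, adjusted p = 0.000851). Fgf18, a growth factor of the resting follicle, changed by -3.92 ± 0.39 (adjusted p = 0.00106), while Ctsl, cathepsin L, rose by 1.95 ± 0.40 (adjusted p = 0.0131). Krt6a and Krt16, genes of the same layers, rose while most of this list did not.

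Genes that keratinocytes raise together with wound keratins on activation rose in nearly every case. Of 16 measured, 15 were called higher (11 to 15 over the alternatives), beside 10.3% of all features. The list was fixed with earlier results of these data known, so its count is not an independent test. The median log2 fold change of the 16 was 4.49. Sprr1b, a small proline-rich protein of the cornified envelope, went from -1.10, 0.79 and -2.67 to 7.98, 7.28 and 7.77, a log2 fold change of 8.67 ± 0.79 (SE, adjusted p = 0.000773). Sprr2d went from 0.63, 2.66 and -2.78 to 8.49, 7.85 and 8.59, a log2 fold change of 8.14 ± 1.20 (adjusted p = 0.00403). On both Sprr genes, as on the own Krt6b probe, healthy skin 2 was highest and healthy skin 3 lowest. The 1 gene not called was Ivl, involucrin, at 0.25. Of 13 proliferation genes, 7 were called higher, beside 10.3% of all features, and the median log2 fold change of the 13 was 1.48. This count was 12 with median scaling, and 2 within slide row 2 with its single healthy array. Top2a, a topoisomerase of dividing cells, rose by 2.74 ± 0.63 (SE, adjusted p = 0.0192, but 0.0614 without tumor 1 and 0.0558 without tumor 2), and Plk1, a mitotic kinase, by 2.40 ± 0.41 (adjusted p = 0.00716, but 0.0697 within slide row 2).

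For each probe the nearest profiles over the 6 arrays were found among features with a gene symbol, by the root mean square of the difference of log2 signals after removing each feature's mean. Krt6a lay nearest to Krt6b on the shared probe (0.26), Aldh1a3, an enzyme that makes retinoic acid (0.36), and Gm5476 (0.36). The shared probe lay nearest to Gm5476 (0.24), Krt6a and Aldh1a3 (0.30). Aldh1a3 was at -0.61, -0.21 and -1.89 in healthy skin and 5.57, 5.36 and 5.73 in tumors. The own Krt6b probe lay nearest to Sprr2i (0.51), Prl2c5 (0.73) and Sprr1b (0.76). Krt16 lay nearest to Hbegf (0.37), the ligand described above, then Cyp2c38 (0.38) and Map7d2 (0.39). Krt6a and Krt16 thus had different neighbours although both rose. Krt17 lay nearest to Dntt (0.12), Eva1b (0.14) and Maged1 (0.16), none of them called. Krt75 lay nearest to Ano4 (0.22), Atp1b1 (0.24) and Krtap10-4 (0.28), the last a keratin-associated protein of hair. Some of these neighbours lay under the lowest signal above background, so their distances rest in part on background. These were Prl2c5 in healthy skin 1 and 3, Sprr2i in healthy skin 3, and Ano4 in healthy skin 3 and tumors 1 and 2. The distances describe 6 arrays and carry no test.

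Markers of other cell types differed between the groups for skeletal muscle and for most adipocyte genes. All 15 skeletal muscle markers were called lower. Their summed log2 signal was 10.89 to 11.34 in healthy skin and 5.71 to 6.94 in tumors. Here and below, this is the log2 of the sum of the genes' unlogged signals, so the brightest genes weigh most. Of 12 adipocyte markers, 10 were called lower (4 without healthy skin 3 and 6 without tumor 1), with a summed log2 signal of 7.25 to 9.14 in healthy skin and 6.30 to 7.84 in tumors, where Lep was not well above background. The adipocyte sums overlapped between the groups, but in tumors 1, 2 and 3 Fabp4 alone was at 7.42, 7.57 and 5.99. Fabp4 was not called (log2 fold change 0.90), and the median log2 fold change of the adipocyte markers was -3.75. Of 12 keratinocyte markers, 2 were called higher (1 without healthy skin 1 or 2, or tumor 2 or 3) and 1 lower, and their summed log2 signal was 9.87 to 10.62 in healthy skin and 10.18 to 10.34 in tumors. Of 12 leukocyte markers, 2 were called higher (1 without any single array but healthy skin 1) and 3 lower (8.21 to 9.10 in healthy skin, 7.55 to 8.03 in tumors). Of those lower, Itgam changed by -2.60 on its brightest probe, which the sums include, but by 0.41 and 1.14 on its other probes. With the mean of probes its change was -0.35 (limma, adjusted p = 0.405). Of 11 fibroblast markers, 1 was higher and 2 lower, or 1 lower without healthy skin 1 or 2, or tumor 1 or 2 (8.08 to 8.96 and 8.18 to 9.36), and of 8 endothelial markers, 1 was higher and 1 lower (4.35 to 6.33 and 3.68 to 4.01). The counts for each of these cell types stand against 10.3% higher and 15.6% lower among all features. The keratinocyte and fibroblast sums overlapped. The summed log2 signal of the wound keratins was 6.89 to 7.81 in healthy skin and 9.97 to 10.06 in tumors. The part of the lower muscle and fat signal in the wound keratin values was not tested.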

How the data were processed

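Per the labels, RNA was labelled with Cy3 (Agilent Low RNA input QuickAmp), with 0.2 µg and an RNA integrity number of 9 for every sample. The deposited intensity of each spot was background-subtracted by Feature Extraction (version 10.7.3.1, Agilent) and placed on mm9, per the file headers. The authors' deposited series table of log2 values, with centring and background handling not stated, was an alternative. Limma appears, without a version, in the submitters' processing notes.

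Intensities were converted to log2 and lowered by the 75th percentile of 59305 non-control spots on the same array. Outlier flags removed 180 of 55681 probes. A probe had to be well above background on 3 or more of 6 arrays (34297 probes), and each gene was represented by its brightest probe on average (24767 features). Symbols came from a RefSeq table (GRCm38.p6), used for names only. Probe sequences are those of the array's files. A factor of "at least" sets the bright group's mean against a dim-group mean of, per array, the dimmest signal still well above background or the probe's signal if higher. Limma 3.58.1 (R 4.3.3) compared the groups with no block, and fits were tested on simulated data.

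The members, lists and tests were chosen with earlier results of these data known. The rule for names was, in each list, the 2 called genes that rose and the 2 that fell the most without overlap, and up to 2 not called with the highest signal. The text describes some of these, and for cell type markers mostly gives counts. The members, Krt1, Krt5, Krt10, Krt14 and the 3 nearest profiles of each member are named too. Cxcl9, Krt72, Krt15, Fos, Nfe2l2, Tfap2c, Areg, Tgfa, Tradd, Hnrnpk, Ivl and the AP-1 genes not called were named after their values were seen. So were Krt71, Lep, the unnamed probe and the genes around Krt75. Alternatives comprised scaling by quantiles, medians or spike-in RNA, normexp (offset 50), the deposited table, other filters and probe rules, a variance trend, array weights, blocks, slide row 2 alone and single arrays left out. The number of arrays limits the precision.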

Additional observations from a re-analysis of the deposited data

How the results depend on the processing

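Krt6a, Krt6b and Krt16 were called higher under all 21 alternatives, as 3 of the 5 wound keratins each time, or 4 with array weights, where Krt17 was added. With the own probe of Krt6b in place of the shared one, an alternative chosen after seeing the data, 3 were called and the median was the same, 5.49. With spike-in scaling the median log2 fold change of the wound keratins was 6.38 and that of all features 0.73, against -0.16 with the 75th percentile and 0.21 with median scaling, so each fold change is relative to the upper signals of an array. The number of features called, 6422, was 2685 with spike-in scaling, 3920 with no detection filter and 9863 with array weights, and between 3841 (without tumor 2) and 5458 (without healthy skin 3) when 1 array was left out, with 4057 without healthy skin 2. Features called higher made up 39.8% of the calls, 62.9% after median scaling and 70.8% after spike-in scaling.

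The sign turned for 2 within-array results: the change of Krt17 relative to Krt5 was -0.59 with the mean of probes, and the difference between Krt6a and Krt16 was -0.0027 without healthy skin 3 and up to 1.34 without healthy skin 1. With the own probe, also added after seeing the data, the change of Krt6a less that of Krt6b was -3.85 in place of -0.33. The log2 fold change of Krt5 was 0.32 with quantile normalization, 0.12 with median scaling, 0.64 with spike-in scaling, 0.45 in the authors' deposited values, 1.13 with the mean of probes and 0.056 without healthy skin 3 (down to -0.41 without healthy skin 2). That of Krt71 was -3.58 with array weights and -3.24 without healthy skin 3 and tumor 1, and -1.14 without healthy skin 2, -1.30 without healthy skin 3, -1.66 without tumor 1 and -1.47 without tumor 3, but 3.95 without tumor 2. The cause was not tested. Of 73 named genes, 32 lost their call and 6 gained one under at least 1 alternative, and no others reversed.

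The labels state no pairing of the samples. Arrays with the same replicate number had correlations of deviations of 0.10, 0.13 and -0.08, and those with different numbers -0.27 to 0.17. With 3 arrays per group, these values cannot show whether samples were paired. With the replicate block, 5469 features were called, and the calls of the wound keratins were as without it. Probes near background in healthy skin, such as the own probe of Krt6b, have fold changes limited by that background.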
